A study of Mus musculus with 3 samples.

Results

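Of the genes measured in the cerebellum at postnatal day 10, 8 belong to the inhibitory system studied here, which makes GABA, loads it or glycine into nerve endings, or marks and specifies GABAergic interneurons. They are Gad1, Gad2, Slc32a1, Slc6a5, Pvalb, Kit, Tfap2a and Tfap2b. They were chosen by name, every probe whose gene symbol on the array is the current or an older symbol of one of them was taken, and this gave 14 of the 38880 probes. All 8 had a value on all 3 arrays, among 19887 named genes and 8341 unnamed probes measured on all 3. Of the 8 genes, 4 were measured by a single probe and 4 by several.

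RNA of Smarca5 conditional knockout (cKO) mice was set against RNA of wild-type mice, both on the C57Bl/6 strain, on 3 arrays with 2 colours. Smarca5 (Snf2h) encodes a chromatin-remodelling ATPase of the ISWI family, and the comparison asks which genes are expressed differently in the mutant cerebellum. The cKO was in Cy5 on replicates 1 and 2 and in Cy3 on replicate 3, with the wild type in the other dye. The Cre driver, the cells it acts in and whether a sample was 1 animal or a pool are not stated in these sources. The p-values thus cover only array-to-array spread, part or all of which may be technical. Each value is a log2 ratio, cKO over wild type, centred on 0 for its array, so 0 means the ratio of the average probe and a value below 0 means lower in the cKO. The table holds ratios and no signal, so levels of a gene, signal over background and the presence of marker genes of the labelled tissue could not be read from it. Its log base and the numerator of the ratio are not stated. Folds hold for base 2, and the direction rests on the labels, which put the cKO in channel 2 of every array and name each array after it. Smarca5 itself was at -0.86 ± 0.11 (SD, n = 3) in that direction, and with the opposite numerator every sign given here would turn.

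GABA, the main inhibitory transmitter of the cerebellar cortex, is made from glutamate by a pair of glutamate decarboxylases, GAD67 from Gad1 and GAD65 from Gad2, and is pumped into vesicles by the transporter VGAT from Slc32a1. Purkinje cells and the interneurons of the molecular layer and the granular layer use it, and Golgi interneurons and some nuclear neurons also release glycine, which the transporter GlyT2 from Slc6a5 takes up. Pvalb encodes the calcium buffer parvalbumin of molecular layer interneurons and Purkinje cells, Kit the receptor tyrosine kinase that molecular layer interneurons carry, and Tfap2a and Tfap2b the transcription factors AP-2 alpha and AP-2 beta, which in the mouse act in the GABAergic lineage of the cerebellum.

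Since 2 of the genes encode AP-2 factors, the promoters of all 8 were searched for the palindromic AP-2 motif GCCNNNGGC, which reads the same on both strands. Promoter windows reach from 250 bases before to 50 after the start site (RefSeq, build GRCm38.p6), and all 8 genes had at least 1, 12 windows in all. The motif was in 5 of these 12 windows, which belong to Gad2, Pvalb and Kit, with the 1 match of Kit in both of its overlapping windows, and in 16.6% of all 32851 windows. Among the 9690 windows with a GC content of at least 60% it was in 34.9%. Matches are a description of letters and not of binding. The windows of the GAD pair and of Kit are shown because the ratios of the pair lay apart on every array and Kit was below 0 on every array. Tfap2a and Tfap2b were also below 0 on every array, but their windows hold no match and are not shown. Pvalb, with a mean ratio of 0.01, has a match in each of its 2 windows, which are not shown either. A match thus did not go with 1 direction of the ratio. Capitals mark the motif, and the Gad1 window holds none. The Gad2 window lies at chr2:22622077-22622376 on the plus strand and has a GC content of 61.3%, with matches that start 242 and 121 bases before the start site. The Gad1 window lies at chr2:70561879-70562178 on the plus strand and holds 21 CpG sites, against 14 in the Gad2 window and 20 in the first Kit window. The first of 2 overlapping Kit windows lies at chr5:75574737-75575036 on the plus strand, with a GC content of 69.0% and a match that starts 134 bases before the start site.
Gad2: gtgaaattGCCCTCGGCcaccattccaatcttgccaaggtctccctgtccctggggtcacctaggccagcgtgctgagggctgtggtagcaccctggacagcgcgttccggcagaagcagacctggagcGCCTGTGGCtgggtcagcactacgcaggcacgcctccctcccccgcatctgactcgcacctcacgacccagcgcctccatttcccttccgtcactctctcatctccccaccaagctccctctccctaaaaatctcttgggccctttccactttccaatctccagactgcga
Gad1: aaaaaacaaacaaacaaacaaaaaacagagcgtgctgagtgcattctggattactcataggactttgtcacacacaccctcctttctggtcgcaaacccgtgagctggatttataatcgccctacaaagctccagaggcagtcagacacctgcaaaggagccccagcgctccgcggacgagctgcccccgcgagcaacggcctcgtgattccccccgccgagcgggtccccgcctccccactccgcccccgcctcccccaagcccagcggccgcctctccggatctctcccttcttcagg
Kit: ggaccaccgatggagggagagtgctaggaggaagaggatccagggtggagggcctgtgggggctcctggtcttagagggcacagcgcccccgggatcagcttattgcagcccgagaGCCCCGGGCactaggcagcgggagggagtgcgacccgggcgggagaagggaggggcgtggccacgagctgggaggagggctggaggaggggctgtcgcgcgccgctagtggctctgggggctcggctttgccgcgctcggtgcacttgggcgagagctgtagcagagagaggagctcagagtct

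Gad2 stood highest of the 8 genes and Tfap2a lowest, with Kit and Tfap2b below 0 to a smaller extent and Gad1, Slc32a1, Pvalb and Slc6a5 with means near 0. No gene passed the threshold of an adjusted p of 0.05 in the fit over all 28228 features (limma's moderated statistic, Benjamini-Hochberg), so 0 of the 8 were called, and 0% of all features were. The smallest adjusted p of any feature was 0.0842. At an unadjusted p under 0.05, Gad2 was higher, as were 10.9% of all features, and Tfap2a and Kit were lower, as were 9.97% of all features. Above 0 on all 3 arrays was Gad2, 1 of 8, against 22.1% of all features. Below 0 on all 3 arrays were Kit, Tfap2a and Tfap2b, 3 of 8, against 21.4% of all features. The other 4 genes had both signs. All features include 8341 unnamed probes. Among the 19887 named genes alone, 2453 were higher and 1960 lower at an unadjusted p under 0.05 (limma). On all 3 arrays, 4947 of the named genes were above 0 and 4401 below 0. The median of the 8 genes was -0.01, beside 0.0022 for all features and 0.0133 for all named genes. As a group the genes thus did not stand to one side, and the values differ from gene to gene.

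**Figure D1:**
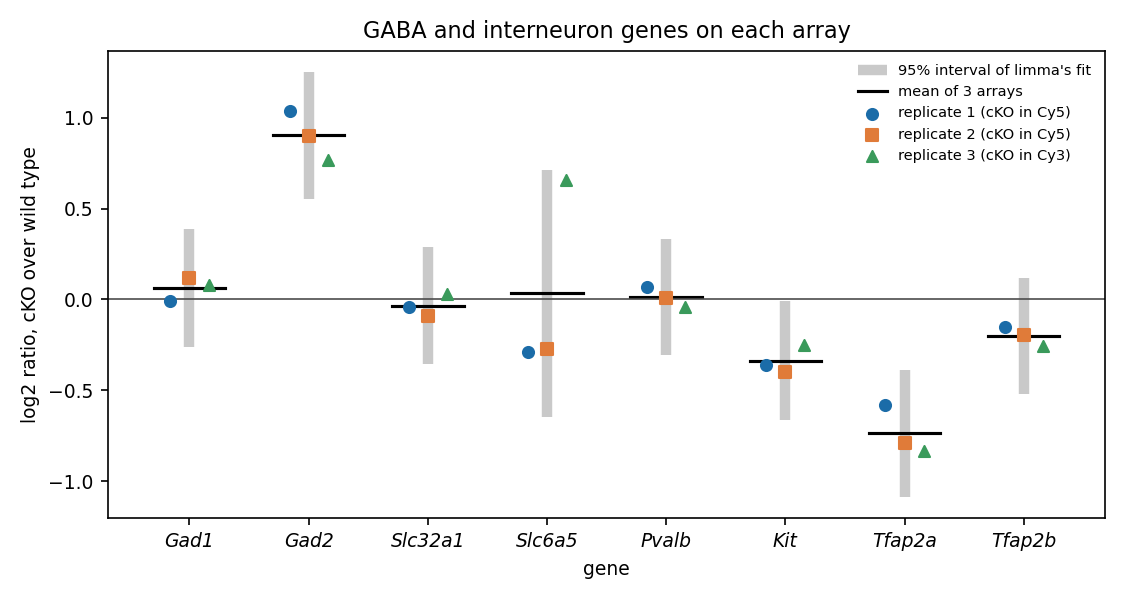
Log2 ratio of cKO over wild type (vertical axis) of the 8 genes on each of the 3 arrays (points), with the mean (black line) and the 95% interval of limma's fit (grey bar). Gad2 lies between 0.77 and 1.04 and Tfap2a between -0.84 and -0.58 on every array, while Slc6a5 is at 0.66 on replicate 3 and below 0 on the other arrays.

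The ratios of the decarboxylases lay apart on every array. Gad2 had ratios of 1.04, 0.90 and 0.77 on replicates 1, 2 and 3. All 3 arrays were thus well above 0, with the lowest value on the dye-flipped array. Its mean was 0.90 ± 0.14 (SD, n = 3), which is 1.87-fold higher in the cKO, with a 95% interval of 0.55 to 1.25 and an adjusted p of 0.0886 from limma (unadjusted p = 0.00189). Both probes showed it, the one listed on the array under the clone name 6330404F12Rik at 0.89, 0.86 and 0.71, and the one listed as Gad2 at 1.19, 0.94 and 0.83. Of all features, 844 had a higher mean ratio.

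Gad1 had -0.01, 0.12 and 0.08 on replicates 1, 2 and 3, a mean of 0.06 ± 0.07 (SD, n = 3). The arrays lay on both sides of 0. The 95% interval reached from -0.26 to 0.39 (adjusted p = 0.815 from limma), so it does not overlap that of Gad2. Its first probe had 0.11 ± 0.03 and its second 0.02 ± 0.14. The ratio of Gad2 exceeded that of Gad1 by 1.05, 0.78 and 0.69 on the 3 arrays, a mean difference of 0.84 ± 0.19 (SD, n = 3). The difference had 1 sign on all 3 arrays, and its exact sign-flip permutation p of 0.25 (two-sided) is the smallest that 3 arrays allow.

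Slc32a1, whose product fills vesicles with GABA and glycine, had -0.04, -0.09 and 0.03, a mean of -0.03 ± 0.06 (SD, n = 3) with a 95% interval of -0.36 to 0.29 (adjusted p = 0.91 from limma). It thus stayed close to Gad1, from which it differed by 0.10 ± 0.10, and lay 0.94 ± 0.18 below Gad2 (SD, n = 3). Each pair had an exact sign-flip permutation p of 0.25. Any difference with 1 sign on all 3 arrays gives that value, so it does not tell the pairs apart. Its single probe carries the older name Viaat on the array.

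Slc6a5, the glycine transporter gene of Golgi cells and of glycinergic neurons of the hindbrain, had -0.29 and -0.27 on replicates 1 and 2 and 0.66 on replicate 3. The arrays with the cKO in Cy5 were below 0 and the dye-flipped array was above it. Its mean of 0.03 ± 0.54 (SD, n = 3) had a 95% interval of -0.65 to 0.71 (adjusted p = 0.959 from limma), the widest of the 8. With a dye term in the fit the estimate was 0.19 and the dye coefficient -0.47, so its sign and size in the cKO are not settled by these arrays. Without replicate 3 the mean was -0.28.

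Among the interneuron markers, Pvalb had 0.07, 0.01 and -0.04, a mean of 0.01 ± 0.06 (SD, n = 3) with a 95% interval of -0.31 to 0.33. It lay on both sides of 0 and had the smallest mean in size of the 8 genes. Kit had -0.36, -0.40 and -0.25, all below 0 and close together. Its mean of -0.34 ± 0.08 (SD, n = 3) is 1.26-fold lower in the cKO, with a 95% interval from -0.66 to -0.01 (limma, unadjusted p = 0.0457, adjusted p = 0.231). The single probe of Kit gave an unadjusted p of 0.0845 with a dye term and of 0.0768 to 0.173 when 1 array was left out (limma). Kitl, the gene of the ligand of Kit, which Purkinje cells supply, had 0.09, 0.26 and -0.20, a mean of 0.05 ± 0.23 (SD, n = 3). Kit also marks mast cells and melanocytes, so their genes were set beside it. Of 7 mast cell genes 0 were at an unadjusted p under 0.05, with means from -0.94 to 0.37 and a median of -0.03. Hdc, the histamine-making enzyme of mast cells, had 0.30 ± 0.20. Of 6 melanocyte genes 0 were, with means from -0.24 to 0.25 and a median of 0.15, and Mitf, a transcription factor of melanocytes, had 0.23 ± 0.18 (SD, n = 3 each). The part of such cells in the value of Kit was not tested.

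The means of both AP-2 genes were below 0, and their 95% intervals overlapped. Tfap2a had -0.58, -0.79 and -0.84 on replicates 1, 2 and 3. All 3 arrays were below 0, with replicate 1 the closest to it. Its mean of -0.74 ± 0.14 (SD, n = 3) is 1.67-fold lower in the cKO, with a 95% interval of -1.09 to -0.39 (limma, unadjusted p = 0.00413, adjusted p = 0.102). Of all features, 1249 had a lower mean ratio. Its 3 probes were all below 0 on all arrays, at -0.82 ± 0.26, -0.83 ± 0.22 and -0.56 ± 0.07. The first of them had -0.52, -0.96 and -0.97 and the second -0.58, -0.91 and -0.99, so both were nearest to 0 on replicate 1. The third had -0.64, -0.50 and -0.55 and did not share that order.

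Tfap2b had -0.15, -0.19 and -0.26, a mean of -0.20 ± 0.05 (SD, n = 3) with a 95% interval of -0.52 to 0.12 (adjusted p = 0.415 from limma). The average was even across arrays, but its 3 probes were not. The first had -0.35, -0.56 and -0.15. The second, listed under the clone name E130018K07Rik, had -0.04, -0.02 and -0.58, so it was low on the dye-flipped array alone. The third had -0.06, 0 and -0.04. The small spread of the gene's average thus arose from probes that deviated in opposite directions, and it understates the uncertainty. Tfap2a was below Tfap2b by 0.43, 0.60 and 0.58, a mean of -0.54 ± 0.09 for Tfap2a minus Tfap2b (SD, n = 3; exact sign-flip permutation p = 0.25, the smallest possible). Single probes of the pair overlapped, since the first Tfap2b probe on replicate 2 and the second on replicate 3 lay below the third Tfap2a probe.

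**Figure D2:**
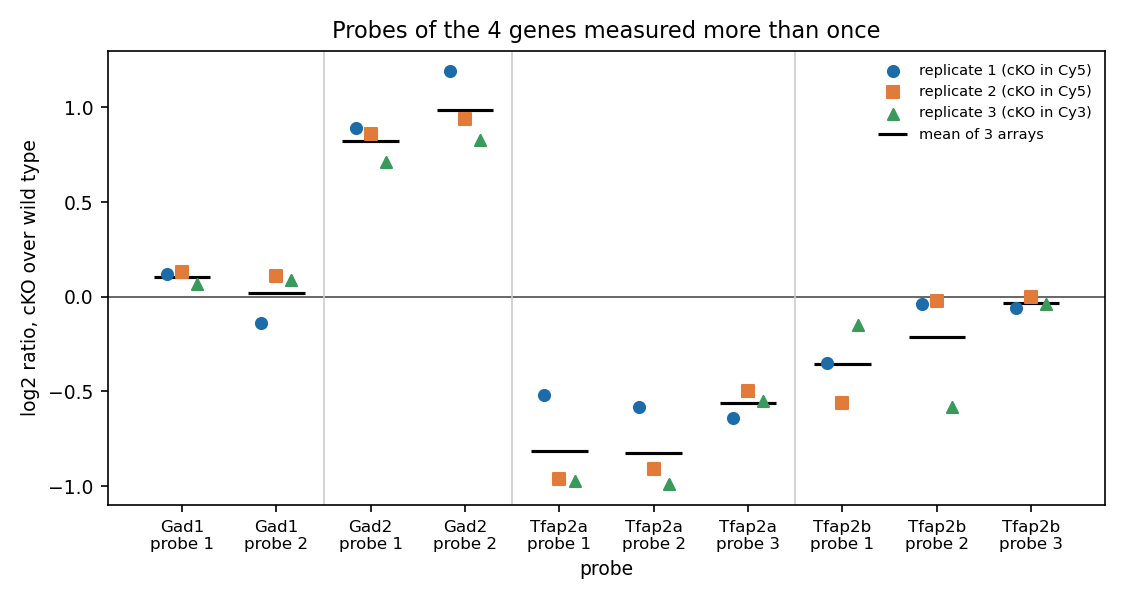
Log2 ratio of cKO over wild type (vertical axis) of each probe of Gad1, Gad2, Tfap2a and Tfap2b on each of the 3 arrays (points), with the mean (black line). Both Gad2 probes are above 0.7 and all 3 Tfap2a probes at or below -0.50 on every array, while the second Tfap2b probe is at -0.58 on replicate 3 and near 0 on the others.

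Against all features, Gad2 was at percentile 97.0 and Tfap2a at percentile 4.43 of the mean ratios, Kit at 18.1 and Tfap2b at 27.9. The 4 remaining genes lay between percentiles 45.5 (Slc32a1) and 57.8 (Gad1). The SD over the arrays was below the median SD of all features, 0.286, for every one of the 8 except Slc6a5, whose SD was at percentile 76.6. Of the 8 genes, 4 are averages of several probes, and averaging can lower the SD, whereas each unnamed feature is a single probe. The second Tfap2b probe alone had an SD of 0.318. The named genes closest to Gad2 by Euclidean distance of the ratios over the 3 arrays were Tmem98 (distance 0.0656; 1.01, 0.87 and 0.72) and Slc35f1 (distance 0.116; 0.93, 0.93 and 0.79). Closest to Tfap2a were Tpcn2 (distance 0.045; -0.56, -0.77 and -0.81) and Pcdhb4 (distance 0.0833; -0.50, -0.79 and -0.86). With 3 arrays such likeness is common, and 93 named genes lay within a distance of 0.25 of Gad2 and 97 of Tfap2a.

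**Figure D3:**
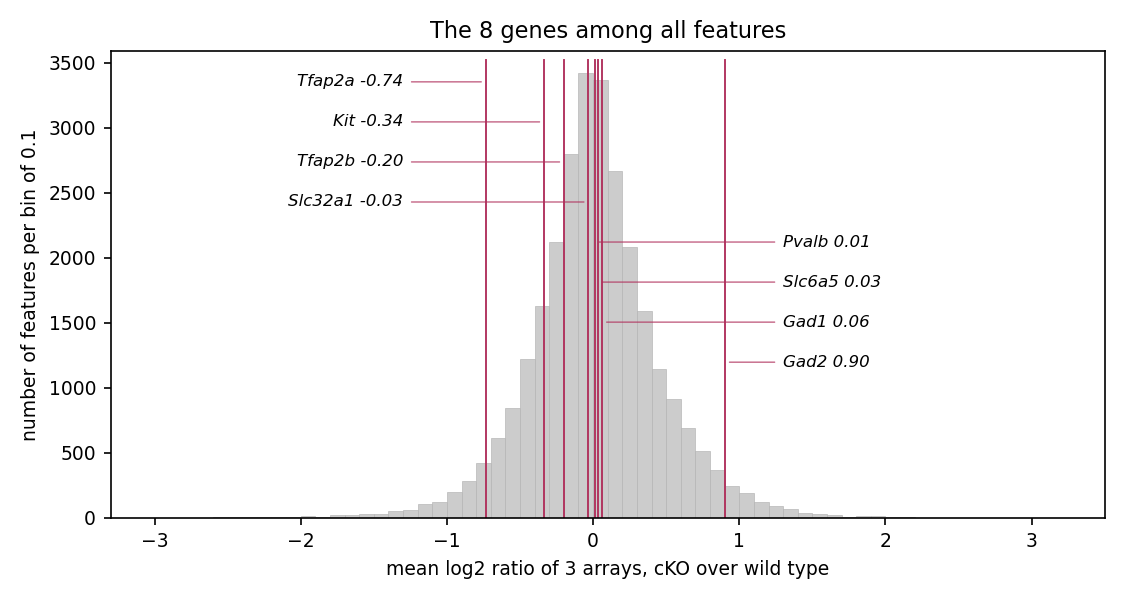
Number of features (vertical axis) by mean log2 ratio of cKO over wild type in bins of 0.1 (horizontal axis), with the 8 genes as red lines. Gad2 at 0.90 and Tfap2a at -0.74 lie in the upper and the lower tail, and Gad1, Slc32a1, Slc6a5 and Pvalb lie in the centre.

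Other genes that handle GABA and glycine had more values above 0 than below. Of 21 listed genes 17 were measured, of which 5 were higher and 0 lower at an unadjusted p under 0.05, against 10.9% higher and 9.97% lower among all features, and 0 passed limma's adjusted threshold. Their median was 0.17, beside 0.0022 for all features. Glra4, a glycine receptor subunit, had 0.81, 0.85 and 1.34, a mean of 1.00 ± 0.30 (SD, n = 3), and Slc6a11, the astrocytic GABA transporter GAT-3, had 0.43, 0.52 and 0.77, a mean of 0.57 ± 0.18 (SD, n = 3). Both were above 0 on every array. The other 3, named after their values were seen, were the betaine and GABA transporter gene Slc6a12 at 0.72 ± 0.31, Aldh5a1, an enzyme of GABA breakdown, at 0.53 ± 0.17, and the glycine receptor gene Glra1 at 1.29 ± 0.98. Glra1 varied widely, with 2.30, 0.34 and 1.22. Gphn, which encodes the scaffold gephyrin of inhibitory synapses, had -0.09 ± 0.05 (SD, n = 3).

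Among GABA-A receptor subunits, 15 of 18 listed genes were measured, 5 higher and 2 lower at an unadjusted p under 0.05 (limma), against 10.9% higher and 9.97% lower among all features. The granule cell subunit genes Gabrd and Gabra6 were the lower ones, at -2.50 ± 0.36 and -1.34 ± 0.58, and the higher ones of smallest p were Gabra5 at 2.02 ± 0.14 and Gabra3 at 0.68 ± 0.10 (SD, n = 3).

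Genes listed for the GABAergic lineage of the cerebellum had values on both sides of 0. The list is mixed, since it also holds Tfap2c, Tfap2d and Tfap2e, taken as the other AP-2 genes. Kirrel2 and Tfap2d are the genes counted as higher below. Of 14 listed genes 12 were measured, of which 2 were higher and 1 lower at an unadjusted p under 0.05 (limma), against 10.9% higher and 9.97% lower among all features, which is near the share of all features. Their median was 0.12. Kirrel2, a target of the lineage factor Ptf1a in the mouse, had 0.82, 1.24 and 1.23, a mean of 1.10 ± 0.24 (SD, n = 3). Ptf1a itself had 1.25, 0.32 and 0.17, so replicate 1 set most of its mean of 0.58 ± 0.58 (SD, n = 3). Lhx5 and Lhx1, LIM homeobox genes of Purkinje cell development, were below 0 on all arrays, at -0.46 ± 0.16 and -0.43 ± 0.27, and Lhx1 was at an unadjusted p of 0.0529 (limma). Pax2, which marks interneuron precursors, had -0.18, -0.65 and 0.19, with both signs. The other AP-2 genes did not share the values of Tfap2a. Tfap2d had 0.44, 0.66 and 0.56, a mean of 0.55 ± 0.11 (SD, n = 3; unadjusted p = 0.0102 from limma), whereas Tfap2c at 0.14 ± 0.29 and Tfap2e at -0.17 ± 0.29 had both signs. Tfap2a was thus the AP-2 gene with the lowest mean and Tfap2d the one with the highest.

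The list of further cerebellar interneuron markers held 11 genes, all measured, among them Kitl, the ligand gene that Purkinje cells supply. Of the 11 genes, 2 were higher and 2 lower at an unadjusted p under 0.05 (limma), against 10.9% higher and 9.97% lower among all features. Their median was 0.08. Nxph1, a secreted neurexin ligand of interneurons, had 0.73 ± 0.22, and Gjd2, which encodes the gap junction protein connexin 36 of Golgi cells, had 0.52 ± 0.23. Nos1, which is used by granule cells and molecular layer interneurons, had -0.78 ± 0.31, and Calb2, which encodes calretinin, had -0.55 ± 0.35 (SD, n = 3 each). Granule cells express both Nos1 and Calb2, and the part of the granule cell genes, given next, in these values was not tested.

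Marker genes of granule cells, a list chosen with earlier results of these data known, also lay away from 0. In whole tissue, fewer cells of a type and less RNA per cell cannot be told apart. Granule cell genes were lower for 10 of 11 measured at an unadjusted p under 0.05 (limma), against 9.97% of all features, with a median of -1.48 and array medians of -1.78, -1.68 and -1.20. Of these, Etv1 had -1.96 ± 0.18. Gabrd and Gabra6 are counted both here and among the GABA-A receptor subunits above. Purkinje cells, which also hold Gad1, Gad2, Slc32a1 and Pvalb, had 1 of 9 genes higher, near the 10.9% of all features, and 0 lower at that level, with a median of 0. Foxp2 had 0.57 ± 0.20 and Rora had -0.30 ± 0.12 (SD, n = 3 each).

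Some genes listed for GABAergic neurons outside the cerebellum were above 0 on the same arrays as Gad2. Cerebellar neurons may express some of them too, Sox14 included, and these ratios cannot tell where a gene is expressed. Of 12 listed genes 11 were measured, and 5 were higher and 0 lower at an unadjusted p under 0.05 (limma), against 10.9% higher and 9.97% lower among all features. The other 6 did not reach that level, and 0 passed the adjusted threshold. The list had a median of 0.81 and array medians of 0.71, 0.54 and 0.48. Tal1, which selects GABAergic fate in the mouse midbrain and brainstem, had 1.56, 1.43 and 1.20, and Sox14, a gene of GABAergic neurons of the thalamus and midbrain, had 1.21, 2.13 and 1.77. Their means were 1.40 ± 0.18 and 1.70 ± 0.46 (SD, n = 3). The other 3, named after their values were seen, were Gata2 at 0.81 ± 0.36, Dlx2 at 1.01 ± 0.17 and Vip at 0.98 ± 0.43. Forebrain genes thus differed, with Dlx2 among the higher ones. Dlx1, Dlx5 and Lhx6 had means of 0, 0.03 and 0.14 and both signs, and Dlx6 had -0.25 ± 0.19. Gata3 and Nkx2-1 had both signs too, with means of 1.07 ± 1.28 and 0.14 ± 0.64 (SD, n = 3 each). Genes of monoamine and acetylcholine neurons, whose cell bodies lie mostly outside the cerebellum, were higher for 7 of 8 at an unadjusted p under 0.05 (limma), against 10.9% of all features, with means from 0.23 to 3.39 and array medians of 2.55, 1.92 and 1.86. Slc18a2, the vesicular monoamine transporter gene, had 3.24 ± 0.72, and Ddc, whose enzyme makes dopamine and serotonin, had 1.83 ± 0.13 (SD, n = 3 each). The lists of this paragraph were chosen with earlier results of these data known, and their counts may be set in part by that choice. Of 8 Hox genes of the hindbrain 0 were at an unadjusted p under 0.05, with means from -0.35 to 0.19. The part of tissue from outside the cerebellum in the value of Gad2 was not tested.

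**Figure D4:**
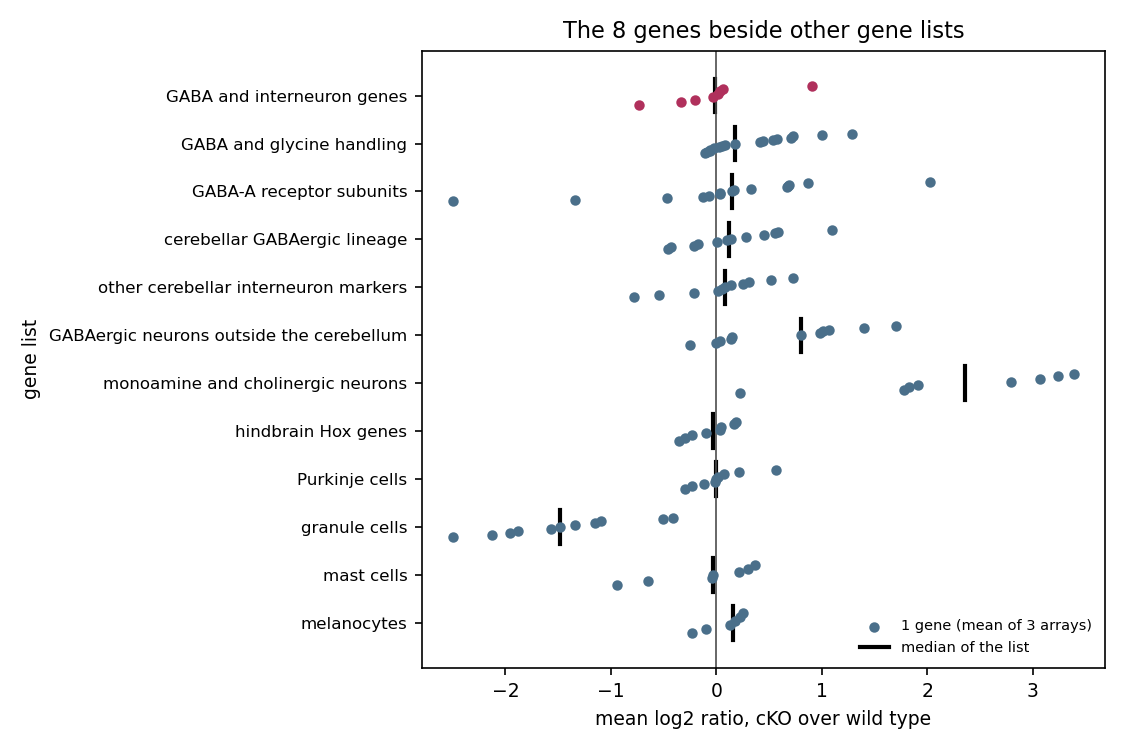
Mean log2 ratio of cKO over wild type (horizontal axis) of each measured gene (points) of the 8 GABA and interneuron genes and of 11 further gene lists (vertical axis), with the list median (black line). The 8 genes have a median of -0.01 and reach from -0.74 to 0.90, and granule cell genes have a median of -1.48. Genes listed for GABAergic neurons outside the cerebellum have a median of 0.81.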

How the data were processed

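The authors deposited 1 centred log2 ratio per probe for each of 3 arrays with 2 colours; the log base was taken as 2 and is, like the scanner, background correction and normalization, not given in the sources used here. Trizol was used for RNA isolation and a Genisphere dendrimer kit for labelling, per the labels' protocols. Mean and median were 0 on every array. The ratios were read as channel 2 (cKO) over channel 1 (wild type). Unnamed spots at the first place of 47 of 48 runs of 810 probes followed the dye, with means of -7.86, -7.93 and 7.71 on replicates 1, 2 and 3, and were left out; Pearson's r across the remaining probes, which are not independent replicates, was 0.443, 0.266 and 0.223 between replicates 1 and 2, 1 and 3, and 2 and 3.

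Of 38880 probes, 30457 had 1 gene symbol on the old platform annotation and 8423 had none and are unnamed here. Through a RefSeq table (GRCm38.p6), 18812 symbols were current, 11220 were a synonym of 1 gene and 425 were kept. Of the 14 probes reported, 6 matched by current symbol and 8 by synonym. Probes of a gene were averaged per array, and 28228 features with 3 values were tested against 0 with limma (intercept, eBayes; 2 residual and 2.08 prior degrees of freedom), adjusted by Benjamini-Hochberg. The fit was tried on simulated, independent values without a dye effect, which checks the code and not how well the fit suits these arrays. No filter on dim probes could be run, and the number of arrays limits the precision. Differences between 2 genes got an exact sign-flip permutation test.

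The 8 genes and the lists were chosen with earlier results of these data known. Named are the 8 genes, Smarca5, Kitl, from each list the 2 highest-ranked by p on either side of 0 with 1 sign on all arrays, and the 2 genes nearest to Gad2 and Tfap2a; others were named after their values were seen. The alternatives were single probes, probe medians, a dye term, leaving out each array, no moderation, robust eBayes, centring, scaling and symbols as on the array. Software was Python 3.11.15 with pandas 2.3.3 and matplotlib 3.10.9, and R 4.3.3 with limma 3.58.1.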

Additional observations from a re-analysis of the deposited data

How the results depend on the processing

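Under 11 alternatives 0 of the 8 genes passed limma's adjusted p of 0.05. The adjusted p of Gad2 ranged from 0.081 to 0.379 and that of Tfap2a from 0.0967 to 0.379, both with 1 direction throughout, single probes included. Over all features, the count past the threshold was 0 except without moderation, where it was 2, both with equal values on all 3 arrays. The number of features at an unadjusted p under 0.05, 5894 as reported, ranged from 3571 to 5061 when 1 array was left out. Of the 8 genes, 3 were at an unadjusted p under 0.05. This became 2 with a dye term or without any 1 array, as Kit no longer passed, and 4 without moderation, with Tfap2b added at 0.0232. With each probe tested on its own it was 5 of 14 probes, 2 of Gad2 and 3 of Tfap2a, and the Kit probe had 0.0516. With symbols as on the array 5 of the 8 genes kept a value, and 2 of these, Gad2 and Kit, were at an unadjusted p under 0.05. The median of the 8 genes, -0.01 as reported, ranged from -0.118 to 0.005 when 1 array was left out, the lowest without replicate 3. Of 91 values of single genes under the alternatives, 3 changed sign. They were Slc6a5, from -0.28 without replicate 3 to 0.195 without replicate 1, and Pvalb, from -0.015 without replicate 1 to 0.04 without replicate 3 and at -0.0017 with arrays centred on the named genes; the cause was not tested. The fit is paired by array, because each array gives 1 ratio of a cKO and a wild-type sample, and no further pairing could be added. Intensities were not used here, so what signal over background limits is unknown.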
